A study of Homo sapiens with 2 samples.

Results

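The genes described are the anti-apoptotic members and relatives of the BCL2 family, with the 2 ubiquitin ligases best known for the turnover of MCL1. They were chosen by symbol: BCL2, BCL2L1, BCL2L2, BCL2A1, MCL1, BCL2L12, BCL2L13, HUWE1 (also called MULE) and FBXW7. All 9 symbols were found among the 43424 rows of the count files. Messenger RNA came from Hep3B, an established human hepatocellular carcinoma line that lacks p53, labelled WT in both groups. The GLE group was given an extract of Glehnia littoralis, a coastal herb, and the control group was given DMSO, the solvent. Each group is 1 library, so no test between groups was possible and every difference below describes these 2 libraries. The labels give a viability assay, in which doses reached 500 µg/mL for 24 h, but no dose or time for the cells that were sequenced. Libraries were made from 500 ng of total RNA with a QuantSeq kit, whose tags come from the 3′ ends of polyadenylated transcripts, so that a transcript gives about the same number of tags whatever its length.

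BCL2 and its relatives decide at the outer mitochondrial membrane whether a stressed cell dies. BCL2, BCL-XL (from BCL2L1), BCL-W (from BCL2L2), A1 (from BCL2A1) and MCL1 are guardians that hold the pore formers BAX and BAK in check. The BH3-only proteins, such as BIM and NOXA, bind the guardians and displace what they hold. MCL1 differs from BCL-XL in being a very short-lived protein: HUWE1 and FBXW7, among other ligases, mark it for the proteasome, so its level depends on steady synthesis. Hepatocytes are known to rely on both MCL1 and BCL-XL for survival. The series names apoptosis as its interest, and these messages show the anti-apoptotic side of that question.

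In the GLE library MCL1 and BCL2L13 were higher than in the control, by 1.58-fold and 1.66-fold. BCL2L1, BCL2L12, HUWE1 and FBXW7 lay between 0.879 and 1.15 times their control levels. BCL2, BCL2A1 and BCL2L2 had at most 7 counts in either library. MCL1 made up 76.0% of the counts of the 5 guardians in the GLE library, against 63.6% in the control, and no gene of the 9 with a usable count was at least 2-fold apart.

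The GLE library held 3636351 counts and the control 5618328. Levels are in CPM, the counts divided by library size after scaling by the trimmed mean of M-values (TMM), and the 95% intervals of levels and ratios cover counting error only. Reads carried no molecular identifiers that the files show, so they are not independent molecules and the true error is larger. Counts give a gene's share of a library, so fewer cells of a kind and less RNA per cell cannot be told apart. The hepatoma markers fixed for the check were all counted, with ALB, albumin, at 9574 GLE and 24988 control counts. Their sum was 11982 CPM in the GLE library and 14946 CPM in the control, with 2 of 10 at least 2-fold lower and 0 higher, beside 10.5% and 9.54% of all genes with at least 30 counts. The interval lay below 1 for 6 of the 10 and above 1 for 2, beside 30.1% and 27.7% of those genes. Of 4 endothelial markers, VWF, CDH5 and KDR were at 0 in both libraries and PECAM1 had 1 GLE and 36 control counts, a ratio of 0.0454 (0.00112 to 0.270). The leukocyte list summed to 466 CPM in the GLE library and 496 CPM in the control. In that list CD3E of T cells was at 0 in both libraries. LYZ, a lysozyme gene, had 1540 GLE and 2711 control counts, CD68 had 96 and 117, CD14 had 9 and 37, and PTPRC had 3 and 1. The 6 fibroblast markers summed to 20.4 CPM in the GLE library and 4.67 CPM in the control. COL1A1 had 29 GLE and 4 control counts, LUM 15 and 6, COL1A2 11 and 6, and DCN 9 and 0. COL3A1 had 5 and 7, and PDGFRB 3 and 4. Of the 6, only COL1A1 had at least 30 counts over both libraries, mainly through its GLE counts. Whether any of these marker levels bears on the 9 genes was not tested.

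**Figure D1:**
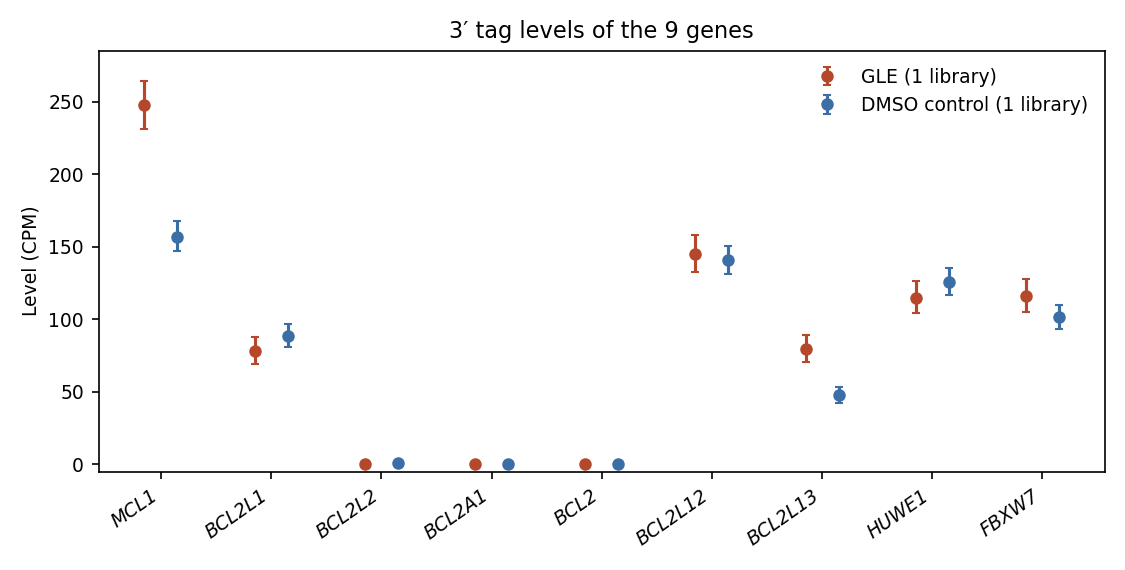
Level of each of the 9 genes in CPM (y axis), in the GLE library (left point of each pair) and the DMSO control library (right point), with 95% Poisson counting intervals as bars. MCL1 stood at 247 CPM in the GLE library against 157 CPM in the control, and BCL2L13 at 79.2 against 47.6; the points of BCL2L2, BCL2A1 and BCL2 lie at or next to 0.

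MCL1 on chromosome 1 (150574558 to 150579610, GRCh38) was the most counted of the 9 genes. It had 875 counts in the GLE library and 907 in the control, which is 247 CPM (231 to 264) against 157 CPM (147 to 168). The ratio of GLE over control was 1.58 (95% counting interval 1.43 to 1.73). Of the 11068 genes with at least 30 counts over both libraries, 16.8% had a higher ratio than MCL1. Among the 8384 genes with at least 100 counts, that share was 14.4%. A difference of this size was thus common in this pair of libraries. GENCODE lists 1 overlapping gene, ADAMTSL4-AS1, at 1 GLE and 3 control counts.

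BCL2L1, on chromosome 20 (31664452 to 31723963), encodes BCL-XL and by splicing also a short form that favours death, and gene counts do not separate the forms. It had 275 counts in the GLE library and 511 in the control. These are 77.8 CPM (68.9 to 87.5) and 88.4 CPM (80.9 to 96.5), a ratio of 0.879 (0.757 to 1.02). The interval included 1, and with scaling by total counts it did not (0.831, 0.715 to 0.965). A lower ratio was found for 41.5% of measured genes. A transcript named as antisense to it, BCL2L1-AS1, whose RefSeq interval (31675108 to 31716844) lies inside BCL2L1, had 28 GLE and 4 control counts. Its ratio was 11.4 (4.00 to 44.9), which 0.343% of measured genes exceeded. It was looked up for this overlap after its values were seen. It passed the count minimum mainly through its GLE counts, and its control level rests on 4 counts. Its rank among measured genes therefore cannot show that it was exceptional. The strand setting of the counting is not stated, so reads of both genes cannot be told apart with certainty. Of the antisense genes that GENCODE lists there, ABALON had 0 counts in both libraries and AL117381.1 was not analysed here.

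The remaining 3 guardians were at or near the floor. BCL2 on chromosome 18 (63123346 to 63320090) had 0 counts in both libraries. That allows a level of up to 0.848 CPM in the GLE library and 0.519 CPM in the control, at a floor of 3 counts. BCL2A1, on chromosome 15 and best known from blood cells as a target of NF-kB, had 1 count in the GLE library and 0 in the control. BCL2L2, on chromosome 14, had 1 GLE count and 7 control counts, or 0.283 CPM against 1.21 CPM. Its ratio of 0.233 had an interval of 0.00518 to 1.82, so no difference was detectable at this depth. The readthrough gene BCL2L2-PABPN1 had 0 counts in both libraries.

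The make-up of the guardians does not depend on how the libraries are scaled. MCL1 held 76.0% (Clopper-Pearson 73.4 to 78.4) of the 1152 guardian counts in the GLE library and 63.6% (61.1 to 66.2) of the 1425 in the control. BCL2L1 held 23.9% (21.4 to 26.4) of them in the GLE library and 35.9% (33.4 to 38.4) in the control. For each BCL2L1 count there were 3.18 MCL1 counts in the GLE library and 1.77 in the control. MCL1 was thus 1.79 times higher relative to BCL2L1 in the GLE library, with an exact conditional interval of 1.50 to 2.14. Taken as a sum, the 5 guardians had 326 CPM in the GLE library and 247 CPM in the control, a ratio of 1.32 (1.22 to 1.43). Of the 5, only MCL1 and BCL2A1 had a higher CPM in the GLE library, and BCL2A1 had 1 count there against 0. In unscaled counts MCL1 had 875 in the GLE library and 907 in the control.

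**Figure D2:**
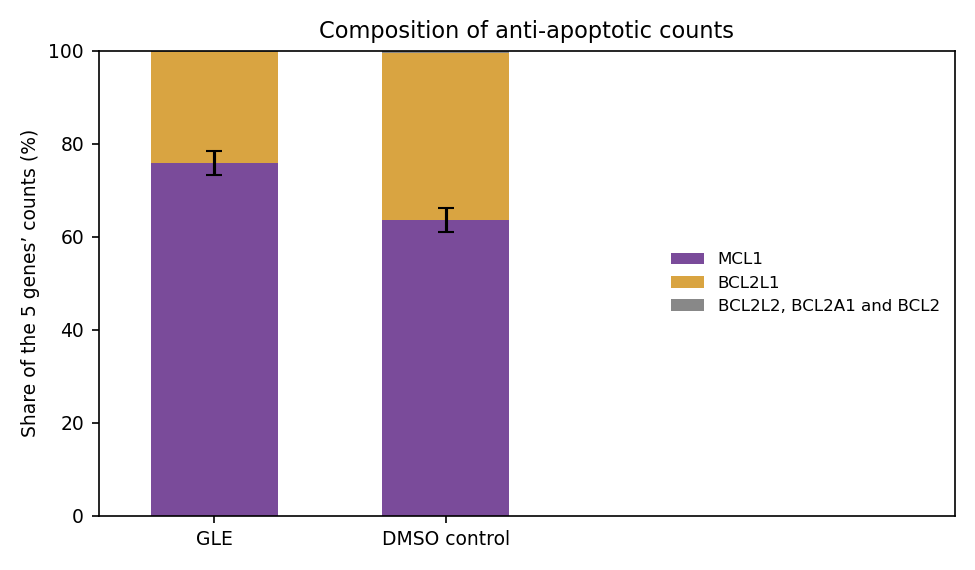
Share (y axis, percent) of the counts of the 5 guardian genes held by MCL1, by BCL2L1 and by BCL2L2, BCL2A1 and BCL2 together, in the GLE library (left) and the DMSO control library (right). Bars on the MCL1 segment are Clopper-Pearson 95% intervals; MCL1 held 76.0% in the GLE library and 63.6% in the control, and the intervals do not overlap.

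BCL2L13 and BCL2L12 are relatives with roles of their own. BCL2L13 (BCL-RAMBO), on chromosome 22 (17628877 to 17730855), sits in the outer mitochondrial membrane and is known as a mitophagy receptor, and promotes death when overexpressed. It had 280 counts in the GLE library and 275 in the control, although the control is the deeper library. Its levels were 79.2 CPM (70.2 to 89.0) and 47.6 CPM (42.1 to 53.6), a ratio of 1.66 (1.40 to 1.97). This was the highest ratio of the 6 counted genes, and 14.6% of measured genes exceeded it. Set against MCL1, its change was 1.06 (0.868 to 1.28), so the 2 ratios could not be separated at this depth.

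BCL2L12, on chromosome 19 (49665142 to 49673916), has been described as an inhibitor of caspases in glioblastoma. It had 513 counts in the GLE library and 813 in the control. The levels were 145 CPM (133 to 158) in the GLE library and 141 CPM (131 to 151) in the control, a ratio of 1.03 (0.921 to 1.15). With scaling by total counts the ratio was 0.975, so no direction is given. IRF3, which overlaps it on the opposite strand, had 191 GLE and 239 control counts.

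Neither of the 2 ligases differed by much. HUWE1, on chromosome X (53532096 to 53686719), is a giant HECT-type ligase that binds MCL1 through a BH3 motif. It had 406 counts in the GLE library and 726 in the control, or 115 CPM (104 to 127) and 126 CPM (117 to 135). Its ratio was 0.914 (0.807 to 1.03), an interval that included 1, and with total counts it was 0.864 (0.763 to 0.977). FBXW7, on chromosome 4 (152320544 to 152536092), is the substrate receptor of an SCF ligase that recognises MCL1 after phosphorylation. It had 411 counts in the GLE library and 586 in the control, or 116 CPM (105 to 128) and 101 CPM (93.4 to 110). Its ratio was 1.15 (1.01 to 1.30), and the lower end lay under 1 in 3 of 6 other settings of scaling or depth. The 2 ligases together had 817 GLE and 1312 control counts, a ratio of 1.02 (0.931 to 1.11). MCL1 was 1.55 times higher relative to their sum in the GLE library (1.36 to 1.76). These are messenger levels; protein and ubiquitination were not measured.

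The 6 counted genes kept nearly the same order in both libraries. In the GLE library the order was MCL1, BCL2L12, FBXW7, HUWE1, BCL2L13 and BCL2L1. The intervals of FBXW7 and HUWE1 overlapped there, as did those of BCL2L13 and BCL2L1. In the control it was MCL1, BCL2L12, HUWE1, FBXW7, BCL2L1 and BCL2L13. There the interval of BCL2L12 overlapped those of MCL1 and HUWE1, and that of FBXW7 overlapped that of BCL2L1. The intervals of MCL1 and BCL2L12 were apart in the GLE library and overlapped in the control. Overlap of separate intervals does not show that levels were alike, and levels within a library were not compared further. MCL1 was 1.53 times higher relative to BCL2L12 in the GLE library (1.32 to 1.77). Of the 15 pairs of counted genes, 10 had a relative change whose interval excluded 1. Those were the 8 pairs of MCL1 or BCL2L13 with the other 4, and FBXW7 with BCL2L1, at 1.30 (1.07 to 1.59), and with HUWE1, at 1.25 (1.05 to 1.50). The share among pairs of all measured genes was not computed, so the 10 pairs do not set these genes apart. For single measured genes, the interval of the ratio lay above 1 in 27.7% and below 1 in 30.1%.

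**Figure D3:**
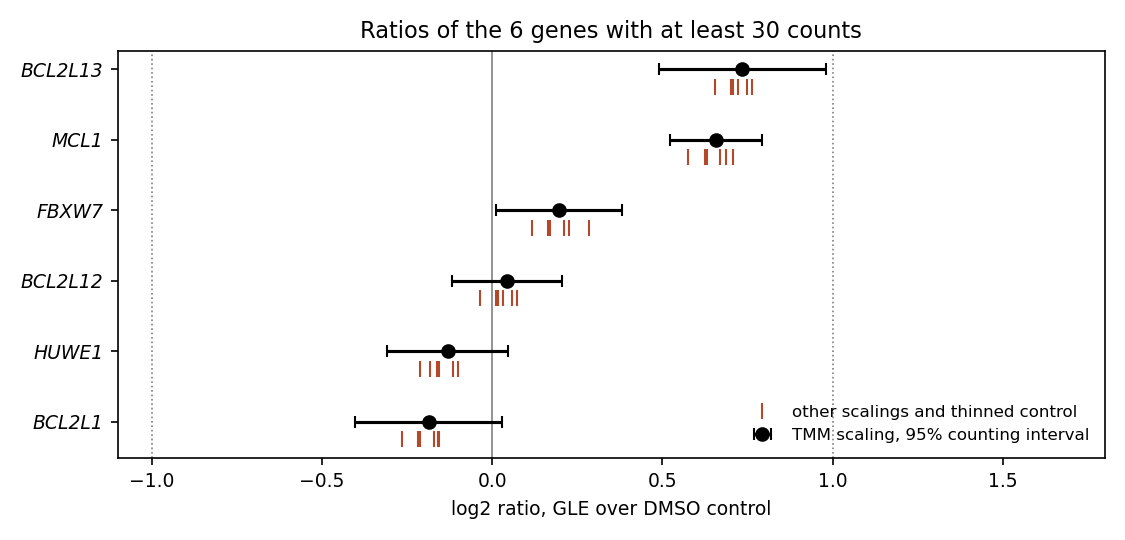
Log2 ratio of GLE over DMSO control (x axis) for the 6 genes with at least 30 counts, with 95% counting intervals as bars and, under each, ticks for the other scalings and for the thinned control; dotted lines mark 2-fold. BCL2L13 (1.66) and MCL1 (1.58) lie above 1 under every scaling drawn, and the other 4 lie between 0.879 and 1.15 with TMM scaling.

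Of the 9 genes, 6 passed the minimum of 30 counts, and BCL2, BCL2L2 and BCL2A1 did not. Among the 6, the count at least 2-fold higher was 0, where 9.54% of all 11068 measured genes were, and the count at least 2-fold lower was 0, where 10.5% were. The counting interval lay above 1 for 3, which were MCL1, BCL2L13 and FBXW7, and below 1 for 0. Over all measured genes it lay above 1 for 27.7% and below 1 for 30.1%. The median log2 ratio of the 6 was 0.12, beside -0.04 for all measured genes. A ratio at least as far from 1 as that of MCL1 was found in 36.0% of measured genes, and as far as that of BCL2L1 in 78.2%.

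**Figure D4:**
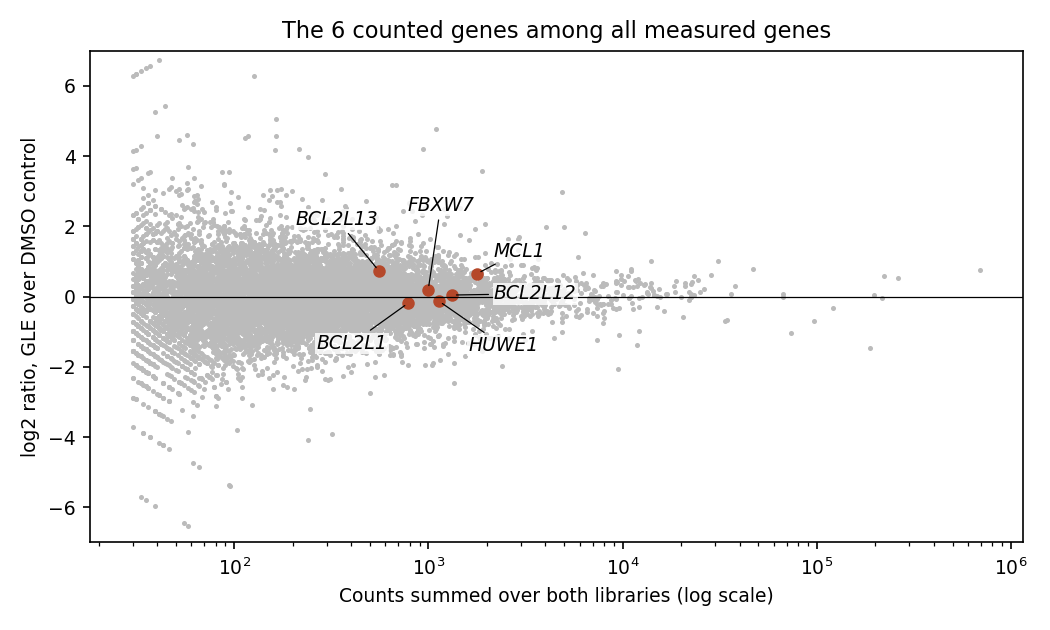
Log2 ratio of GLE over DMSO control (y axis) against counts summed over both libraries (x axis, log scale) for the 11068 genes with at least 30 counts (grey), with the 6 counted genes of the family and its ligases marked. The marked genes lie within the body of the cloud, MCL1 and BCL2L13 in its upper part with 16.8% and 14.6% of genes above them.

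The 9 genes lie on 9 different chromosomes, and their 3′ untranslated regions, where the tags come from, differ in length. For each gene, the longest protein-coding GENCODE 29 transcript marked principal was taken, or the longest of any where none was so marked. In these transcripts, the 3′ untranslated region was longest in BCL2, at 5279 bases, and shortest in BCL2L12, at 167. The pentamer ATTTA, the core of AU-rich elements that are known to shorten messenger life, occurred 10 times in that of MCL1 and 8 times in that of BCL2L13. It occurred 7 times in FBXW7, 3 times each in HUWE1 and BCL2L1, and 0 times in BCL2L12. Over 10125 measured genes with such a transcript the median was 2, and 15.0% had at least as many as MCL1 and 20.4% at least as many as BCL2L13. The 2 genes with the highest ratios also had the most pentamers of the 6, which is a match over few genes. Their regions were also longer than most, at 2819 and 3321 bases against a median of 1276. Whether pentamers or length bear on the ratios was not tested. Pentamers were counted in annotated transcripts, and the transcript ends used in these cells were not determined.

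The partners that the guardians bind had members above and below their control levels. Of 11 effector and BH3-only genes, 9 passed the minimum, with 1 gene at least 2-fold up in the GLE library, 1 as far down, and a median log2 ratio of 0.11. That is close to the 9.54% and 10.5% of all measured genes. Intervals lay above 1 for 2 and below 1 for 3, beside 27.7% and 30.1% of all measured genes. BCL2L11, the gene of BIM, had 155 counts in the GLE library and 66 in the control, a ratio of 3.84 (2.86 to 5.20). Relative to MCL1 it was 2.43 times higher in the GLE library (1.78 to 3.35), and relative to BCL2L1 4.36 times (3.12 to 6.13). BBC3, the gene of PUMA, went the other way relative to MCL1, with a change of 0.686 (0.574 to 0.819). BOK, a BAX-like effector, was 3.67-fold lower with 15 GLE and 90 control counts. BMF had a ratio of 0.511 (0.339 to 0.752).

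Summed over the 11 partners there were 262 CPM in the GLE library and 258 CPM in the control, a ratio of 1.02 (0.935 to 1.10). For each guardian count there were 0.804 partner counts in the GLE library and 1.04 in the control, a relative change of 0.769 (0.686 to 0.863). The sum rests on BBC3 and BID, which had 295 and 257 of the 926 partner counts in the GLE library. PMAIP1 encodes NOXA, the BH3-only protein that binds MCL1 and promotes its degradation, and was picked out after its values were seen. It had 5 counts in the GLE library and 0 in the control, and the counting interval of the ratio began at 1.50. HRK, another BH3-only gene, went the other way. It had 2 counts in the GLE library and 16 in the control, a ratio of 0.204 (0.0228 to 0.869). Both PMAIP1 and HRK had too few counts to pass the minimum.

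Among other genes of MCL1 turnover, 1 was at least 2-fold from its control level. Of 17 listed, 16 passed the minimum, with 0 at least 2-fold higher, 1 lower and a median log2 ratio of -0.07. Over all measured genes, 9.54% were as far up and 10.5% as far down. Intervals above 1 were found for 4, and below 1 for 3, beside 27.7% and 30.1% of all measured genes. USP13, a deubiquitinase that stabilises MCL1, had 55 counts in the GLE library and 214 in the control, 2.38-fold lower. CDK1, a mitotic kinase that phosphorylates MCL1, had a ratio of 1.58 (1.41 to 1.76), and MARCHF5, a ligase of the outer mitochondrial membrane, of 1.71 (1.36 to 2.16). USP9X, the best-known deubiquitinase of MCL1, was added after its values were seen and had a ratio of 1.09 (0.928 to 1.29).

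Genes that bear on MCL1 transcription and translation lay on both sides of their control levels. All 12 listed genes passed the minimum, with 4 at least 2-fold higher, 1 lower and a median log2 ratio of 0.24, where 9.54% of all measured genes were as far up and 10.5% as far down. Of the 12, 6 had an interval above 1 and 1 had it below, beside 27.7% and 30.1% of all measured genes. ATF4, the transcription factor of the integrated stress response, had 3368 counts in the GLE library and 2518 in the control, a ratio of 2.19 (2.08 to 2.30). CCNT2 and CCNT1, cyclins of the elongation kinase CDK9, had ratios of 2.51 (2.05 to 3.08) and 2.04 (1.76 to 2.36). CDK9 itself had 11 GLE and 19 control counts, a ratio of 0.946 with a wide interval (0.407 to 2.09), so no direction is given.

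**Figure D5:**
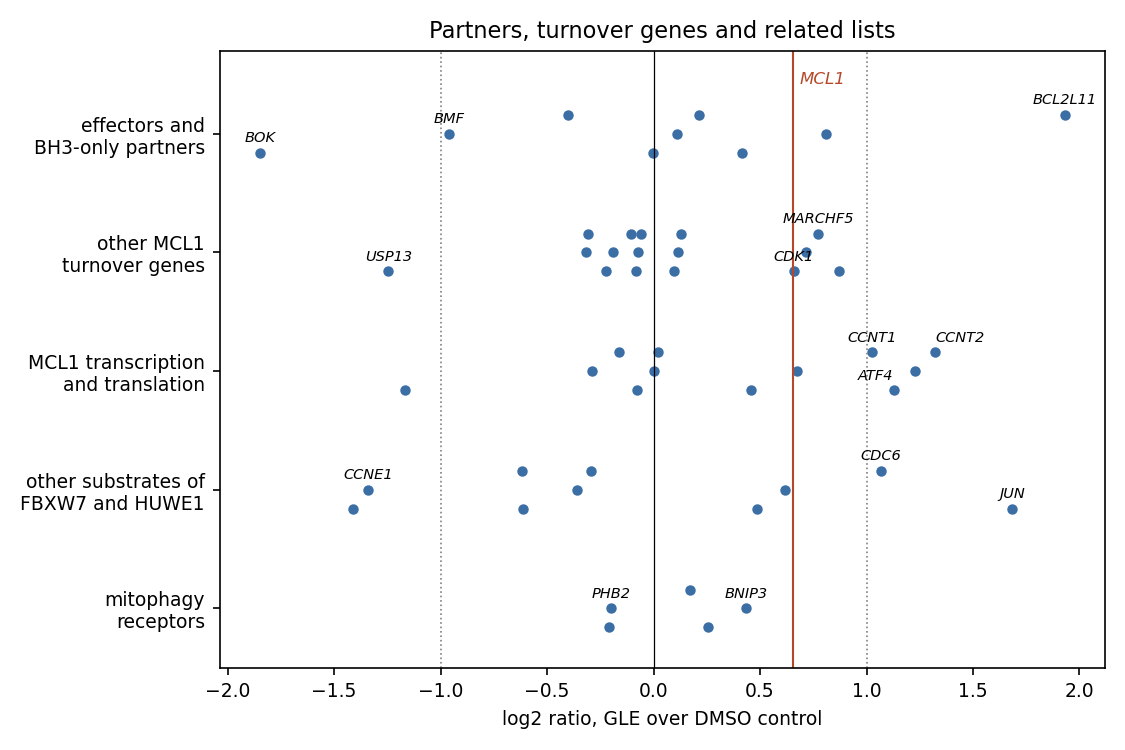
Log2 ratio of GLE over DMSO control (x axis) for every gene with at least 30 counts in 5 lists (rows), each point a gene, with the genes of the naming rule labelled; the vertical coloured line is MCL1 and dotted lines mark 2-fold. BCL2L11 lies farthest right at a ratio of 3.84 and BOK farthest left, and most turnover genes lie within 2-fold.

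Other substrates of the same 2 ligases had higher and lower members. Of 11 listed, 10 passed the minimum, with 2 at least 2-fold higher, 2 lower and a median log2 ratio of -0.33, beside 9.54% and 10.5% of all measured genes. The interval was above 1 for 4 and below 1 for 5, beside 27.7% and 30.1% of all measured genes. JUN had 1943 counts in the GLE library and 988 in the control, a ratio of 3.21 (2.98 to 3.47). CCNE1, the gene of cyclin E1, was 2.54-fold lower at 51 and 212 counts, and CDC6, a replication licensing factor, had a ratio of 2.10 (1.84 to 2.39).

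Mitophagy receptors other than BCL2L13 stayed within 2-fold in all 5 cases, with a median log2 ratio of 0.17. Most measured genes did so too, as 9.54% were at least 2-fold higher and 10.5% lower. The interval lay above 1 for 1 receptor and below 1 for 1, beside 27.7% and 30.1% of all measured genes. BNIP3 had a ratio of 1.35 (1.14 to 1.60) and PHB2, prohibitin 2, of 0.870 (0.808 to 0.937). Of 3 further BCL2-like genes, BCL2L10 and BCL2L15 had 0 counts in both libraries. BCL2L14 had 7 counts in the GLE library and 44 in the control, 3.85-fold lower (1.72 to 10.1).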

How the data were processed

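One GLE and 1 DMSO control library were compared. The authors deposited 1 table of whole-number read counts for each library, by gene symbol and not normalized. The submitters' processing notes name fastp, STAR, HTSeq and GRCh38; versions, annotation and strand setting are not given in the sources. The members, gene lists and rules were chosen with earlier results of these data known.

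Counts were scaled by TMM factors (0.972 for GLE, 1.03 for the control) in edgeR 4.0.16 under R 4.3.3. Ratios are GLE over control. Their 95% intervals come from Clopper-Pearson bounds on the share of a gene's counts found in the GLE library. Relative changes of gene pairs are count odds ratios with exact conditional intervals (SciPy 1.17.1). Genes with at least 30 counts over both libraries were measured, and log2 ratios had 0.5 added to each scaled count. The floor for a count of 0 was 3 counts. Every member was named, and from each list up to 3 measured genes whose interval bound nearest to 1 lay farthest from it. With 2 libraries, no genes were sought for likeness of pattern. The computation was tested on simulated data. Positions are from RefSeq on GRCh38.p14 and 3′ untranslated regions and overlaps from GENCODE 29. Other settings were total counts, DESeq2 1.42.0 and upper-quartile factors, a centred median, library sizes without abundant genes, a thinned control, other count minimums and a count of 2 added.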

Additional observations from a re-analysis of the deposited data

How the results depend on the processing

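No paired analysis was possible because each group has 1 library. Across 6 other scalings and depths, the ratio of MCL1 ran from 1.49 to 1.63, that of BCL2L13 from 1.57 to 1.70 and that of BCL2L1 from 0.831 to 0.898. The number of genes with the interval above 1 was 2 or 3. The number with the interval below 1, 0 with TMM scaling, was 2 with total counts (BCL2L1 and HUWE1) and 1 when mitochondrial genes and the 20 most abundant genes were left out of library sizes (BCL2L1). Compared with TMM scaling, these 2 settings shift the log2 of every ratio by the same amount, -0.081 and -0.033. With a minimum of 1 count, 1 gene was at least 2-fold higher (BCL2A1, 1 count) and 1 lower (BCL2L2), since such counts entered. The median log2 ratio of the counted genes ran from 0.04 to 0.16. MCL1 relative to BCL2L1 was 1.82 with the control thinned. Of 85 values under alternatives, 81 stayed within the limits set, 4 moved and 0 changed direction among those whose interval excluded 1. Depth limits BCL2, BCL2A1 and BCL2L2, for which only an upper bound or a wide interval could be given.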
